A study of Arabidopsis thaliana with 18 samples.

Results

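To compare the jasmonate pathway between subjective dawn and subjective dusk, the transcripts of 10 Arabidopsis thaliana genes were examined in wt. No hormone or wounding treatment is stated for these plants. LOX2, AOS, AOC1, AOC2, AOC3, AOC4 and OPR3 encode enzymes of jasmonate synthesis, JMT encodes the enzyme that methylates jasmonic acid, and VSP1 and VSP2 encode vegetative storage proteins. They were taken by gene identifier from the 33331 genes listed, and all 10 had values. The study sequenced polyadenylated RNA from aerial tissue of 3 lines, namely wt (Col-2), AtGRP7-ox, in which a viral promoter active in most tissues drives AtGRP7, an RNA-binding protein, and grp7-1 8i, a T-DNA mutant of AtGRP7 that also carries an RNAi construct against the paralog AtGRP8. Only the wt libraries could be assigned from their labels, so no line was compared with another here. The wt plants carried no mutant allele or transgene. All had grown for 16 days in cycles of 12 h light and 12 h dark before the shift to continuous light (LL), and were harvested after 24 h (LL24, 3 libraries) or 36 h (LL36, 3 libraries). Each library came from a bulk of plants. The LL36 plants were also 12 h older and 12 h longer in continuous light than the LL24 plants. Time of day, time in continuous light, age and harvest therefore cannot be told apart in the changes.

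Jasmonates are lipid hormones made from linolenic acid of chloroplast membranes. In the chloroplast a lipoxygenase, allene oxide synthase and allene oxide cyclase act in turn to give 12-oxo-phytodienoic acid (OPDA), which OPR3 reduces in the peroxisome before β-oxidation shortens the chain to jasmonic acid. JAR1 conjugates jasmonic acid to isoleucine. The conjugate brings the F-box protein COI1 together with the JAZ repressors, whose degradation frees MYC transcription factors. In leaves, wounding and insect feeding are the best known triggers. LOX2, AOS, the AOC genes and OPR3 are themselves induced by jasmonate, and the VSP genes are long-used reporters of the pathway.

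Values are TPM, the share of a library that falls to a gene after correction for its length, on a scale with the same total in each library, so levels of different genes can be set side by side. Changes are differences of log2(TPM + 0.5) between LL36 and LL24, which understate the change of genes with low values. A gene was called when its limma adjusted p was below 0.05 over the 19303 genes with a mean above 1 TPM at LL24 or LL36. Many transcripts differed between these times, and the median gene was 0.21 higher at LL36 on the log2 scale. Each change is therefore also given relative to this median shift. Beside the deposited TPM, values after median-of-ratios scaling and after quantile normalization are used, under which the median shift was 0.01 and 0.04.

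The libraries summed to between 990489 and 992864 TPM, and between 18523 and 18935 genes exceeded 1 TPM in each. TPM keep no sequencing depth, so no counting error can be attached to a value. The clock gene CCA1, which peaks around dawn, lay between 162 and 197 TPM at LL24 and between 3.72 and 4.74 TPM at LL36, and TOC1, an evening gene, rose from 6.45 to 7.08 TPM to between 59.7 and 61.6 TPM, as the time labels state. AtGRP7 lay between 100.2 and 132 TPM at LL24 and between 4458 and 4855 TPM at LL36. The 3 leaf markers RBCS1A, CA1 and LHCB1.2 were abundant, at 1231 to 27180 TPM, whereas the 5 flower markers did not exceed 4.22 TPM and the 5 root markers did not exceed 1.38 TPM. Jasmonate genes are strongly expressed in flowers, and the summed flower markers lay between 2.15 and 3.31 TPM at LL24 and between 2.89 and 5.47 TPM at LL36. SEP3 made up most of this sum in each library. The summed root markers lay between 1.05 and 3.69 TPM and between 1.10 and 1.91 TPM, with 1 value at 0, and the summed leaf markers between 30700 and 33160 TPM and between 21670 and 23840 TPM. The part of these differences in the results was not tested.

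Of the 10 genes, 7 were called between LL36 and LL24, 5 higher at LL36 (LOX2, AOC2, AOC4, OPR3 and VSP1) and 2 lower (AOS and JMT). The background is high, since the share called was 52.4% over all tested genes (41.2% higher at LL36 and 11.2% lower), and nothing particular to the 10 genes is read from their count. AOC2 was 2.99-fold higher at LL36 and JMT 5.70-fold higher at LL24, and the other called genes changed less. AOC1, AOC3 and VSP2 were not called. The median log2 change of the 10 genes was 0.35, beside 0.21 for all tested genes. The 2 time points did not overlap for 7 of the 10 genes, beside 63.8% of all tested genes. All 10 passed the filter on low values, 9 of them at both times. JMT passed only through LL24, where it was high, so its adjusted p and call are given as description. With median-of-ratios scaling 5 of the 10 were called, 3 higher and 2 lower, beside 34.2% of all tested genes (16.1% higher, 18.1% lower). With quantile normalization it was 7, 5 higher and 2 lower, beside 34.4% (18.7% higher, 15.7% lower). In bulk tissue, fewer cells of a type and less RNA per cell cannot be told apart.

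**Figure D1:**
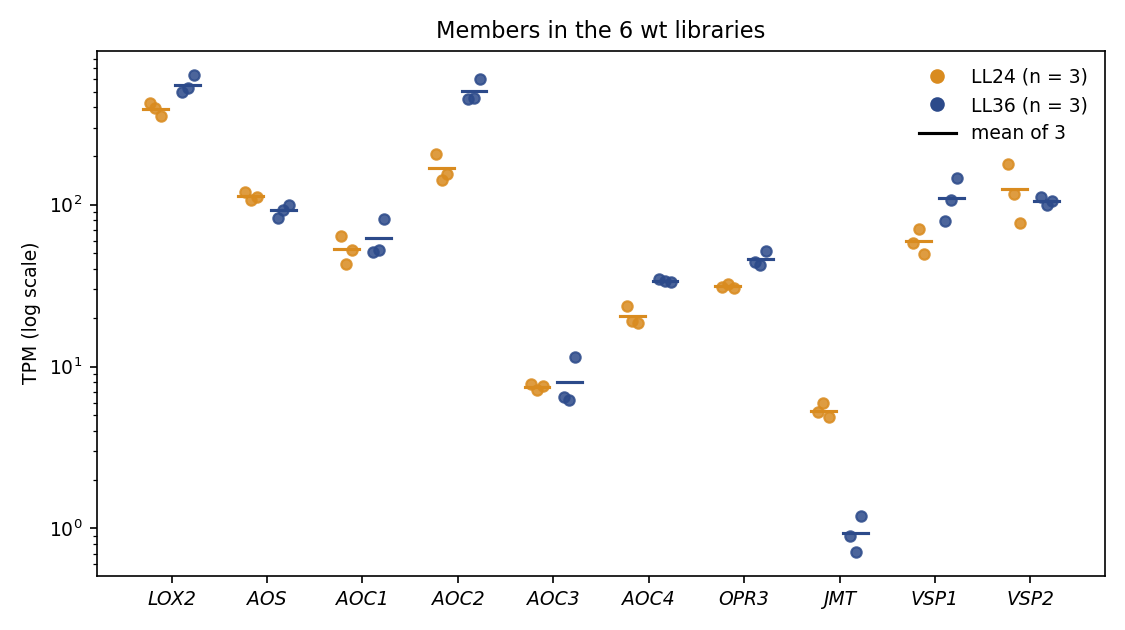
TPM (log axis) of the 10 genes in the 6 wt libraries, with orange points for the 3 LL24 libraries, blue points for the 3 LL36 libraries and a bar for each mean. AOC2 at LL36 (451 to 602 TPM) lies above all its LL24 values (143 to 206 TPM), and JMT falls to between 0.717 and 1.199 TPM at LL36.

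LOX2 was the most abundant at both times and JMT the least. At LL24 the order of the means was LOX2, AOC2, VSP2, AOS, VSP1, AOC1, OPR3, AOC4, AOC3 and JMT. Within this order, the values of AOC2 and VSP2, of VSP2 and AOS, and of VSP1 and AOC1 overlapped between neighbours. At LL36 VSP1 had moved to the third place ahead of VSP2 and AOS. There the values of LOX2 and AOC2, of VSP1 and VSP2, and of AOC1 and OPR3 overlapped, and the lowest VSP2 and the highest AOS value were both 100.3 TPM.

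LOX2 (AT3G45140, 7 exons, chromosome 3) encodes the 13-lipoxygenase of chloroplasts that oxygenates linolenic acid. It was measured at 426, 395 and 354 TPM in LL24 replicates 1, 2 and 3 and at 497, 524 and 637 TPM in LL36 replicates 1, 2 and 3. Every LL36 library was above every LL24 library, and LL36 replicate 3 was the highest. The mean rose from 392 ± 36.3 to 553 ± 74.2 TPM (SD, n = 3 each), a log2 change of 0.49 (SE 0.11, limma adjusted p = 0.0111), or 0.28 relative to the median gene. The call was lost with median-of-ratios scaling (limma adjusted p = 0.0989), under which the log2 change was 0.28.

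AOS (AT5G42650, 1 exon, chromosome 5) encodes allene oxide synthase, which turns the lipoxygenase product into an unstable allene oxide. Its values were 120.2, 108 and 112 TPM at LL24 and 83.4, 92.8 and 100.3 TPM at LL36. AOS thus lay lower in each LL36 library, with a narrow gap between the groups. The mean fell from 113 ± 6.34 to 92.1 ± 8.47 TPM, a log2 change of -0.30 (SE 0.08, limma adjusted p = 0.0215), or -0.51 relative to the median gene. The adjusted p from limma was 0.0569 without LL24 replicate 1, 0.0558 without LL36 replicate 1 and 0.0583 without LL36 replicate 2. With median-of-ratios scaling it was 0.0045. Of the 7 synthesis genes, AOS was the only one called lower at LL36.

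LOX2 and AOS, which act one after the other, were also set against each other within each library, a ratio chosen after the values were seen and unaffected by any factor common to a library. The ratio of LOX2 to AOS TPM was 3.55, 3.67 and 3.16 at LL24 and 5.96, 5.65 and 6.35 at LL36. The groups did not overlap. In an exact two-sided permutation test p was 0.1, the smallest that 3 libraries against 3 allow, and it remained 0.1 after adjustment over the 4 ratios computed. The ratio of AOC2, which encodes the next enzyme, to AOS was 1.72, 1.33 and 1.39 at LL24 and 5.41, 4.93 and 6.004 at LL36 (exact two-sided permutation p = 0.1, adjusted 0.1), again without overlap. Each of the 4 ratios pairs genes whose calls differed in these same libraries, so their separation is given as description.

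Allene oxide cyclase, which closes the ring of OPDA in its active form, is encoded by a family of 4 genes. AOC1 (AT3G25760), AOC2 (AT3G25770) and AOC3 (AT3G25780) stand side by side on the plus strand of chromosome 3 with no other coding gene between them, while AOC4 (AT1G13280) is on chromosome 1. Each has 2 exons. In their coding sequences AOC1 and AOC2 were 90.3% identical, AOC1 and AOC3 83.2%, and AOC1 and AOC4 76.0%. Because the reads were 100 bases long, the transcripts were searched for shared stretches on the TAIR10.1 reference annotation. No window of 100 bases in any of the 10 genes occurred in another gene. Of windows of 50 bases, AOC1 shared 2.1% and AOC2 0.08%, in both cases with AOC3 only. AOC3 shared 1.55% with AOC1 and AOC2. The longest coding run in common was 73 bases for AOC1 and AOC3 and 50 bases for AOC2 and AOC3. The longest coding stretch in common to AOC1 and AOC2, 47 bases, is printed to show how alike these neighbours are and how often they nonetheless differ.
AOC1 and AOC2, shared coding run: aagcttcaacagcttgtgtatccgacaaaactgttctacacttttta

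AOC2 carried the largest rise of the 10 genes. It was measured at 206, 143 and 155 TPM in LL24 replicates 1, 2 and 3 and at 451, 457.8 and 602 TPM in LL36 replicates 1, 2 and 3. The lowest LL36 value lay far above the highest LL24 value. The mean rose from 168 ± 33.4 to 504 ± 85.2 TPM, a log2 change of 1.58 (SE 0.17, limma adjusted p = 0.000573), or 1.37 relative to the median gene. AOC2 kept its direction and its call under all 15 alternatives tried.

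AOC1, its neighbour, was not called. It stood at 64.3, 42.8 and 52.8 TPM at LL24 and at 51.2, 52.8 and 82.1 TPM at LL36. The groups overlapped, and the highest value of each came from the replicates in which AOC2 was highest too, LL24 replicate 1 and LL36 replicate 3. The log2 change was 0.20 (SE 0.22, limma adjusted p = 0.459), or -0.01 relative to the median gene, and it was -0.01 with median-of-ratios scaling and -0.02 without LL36 replicate 3.

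AOC3 had low values of 7.77, 7.20 and 7.55 TPM at LL24 and of 6.52, 6.19 and 11.4 TPM at LL36. LL36 replicate 3 stood above all others and the remaining pair of LL36 libraries below all of LL24. The log2 change was 0.04 (SE 0.22, limma adjusted p = 0.882) and turned negative with median-of-ratios scaling (-0.16), with quantile normalization (-0.16), when scaled without the 100 most abundant genes (-0.06) and without LL36 replicate 3 (-0.23).

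AOC4 lay at 23.8, 19.2 and 18.5 TPM at LL24 and at 34.8, 33.6 and 33.3 TPM at LL36. The 3 LL36 libraries were close to each other and all above LL24. The mean rose 1.66-fold from 20.5 ± 2.91 to 33.9 ± 0.80 TPM, a log2 change of 0.72 (SE 0.10, limma adjusted p = 0.00167), or 0.51 relative to the median gene, and the call held under all 15 alternatives.

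Summed over the 4 genes, AOC transcripts amounted to 302, 212 and 234 TPM at LL24 and to 544, 551 and 729 TPM at LL36. The groups did not overlap, neither in this total nor in the makeup of the family. AOC2 made up 68.3%, 67.4% and 66.3% of the AOC transcripts at LL24 and 83.0%, 83.2% and 82.6% at LL36. The shares of the other genes were lower at LL36, from 21.3% to 10.1% for AOC1, from 8.27% to 5.69% for AOC4 and from 3.06% to 1.297% for AOC3 on average. The ratio of AOC2 to AOC1 TPM was 3.21, 3.34 and 2.94 at LL24 and 8.81, 8.66 and 7.33 at LL36. The groups did not overlap (exact two-sided permutation p = 0.1, the smallest possible). This ratio pairs a called with an uncalled gene of the same libraries and is given as description. With AOC1, AOC2 and AOC3 added up, so that reads shared among the neighbours cannot matter, the log2 change was 1.33 (SE 0.17, limma adjusted p = 0.00129).

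**Figure D2:**
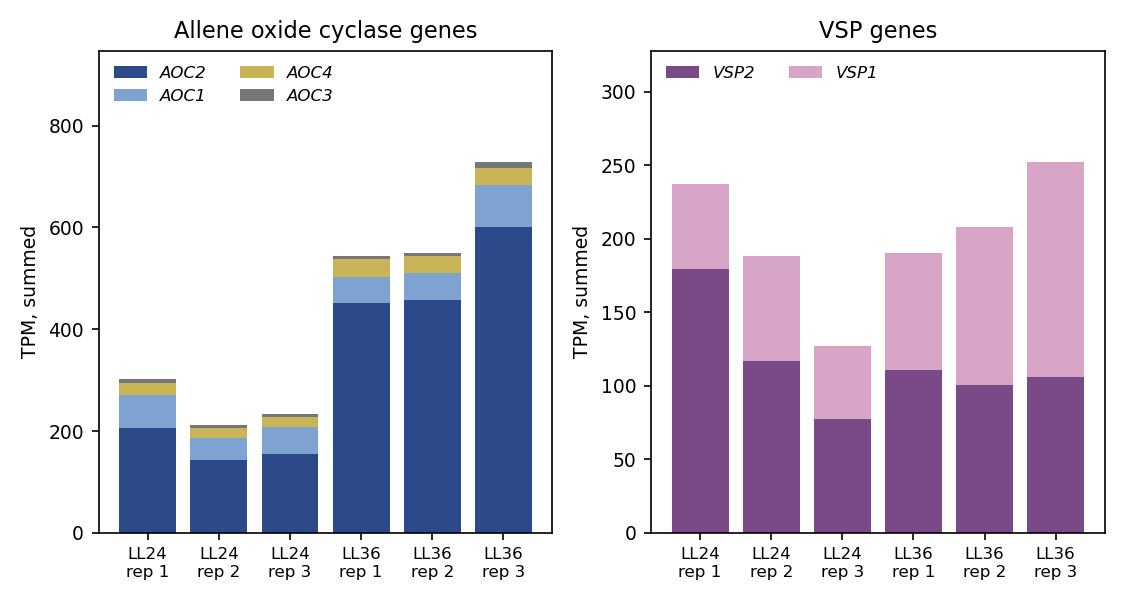
Stacked TPM of the 4 AOC genes (left) and of the 2 VSP genes (right) in each wt library. AOC2 fills 66.3% to 68.3% of the AOC bar at LL24 and 82.6% to 83.2% at LL36, and VSP1 fills 24.3% to 39.0% of the VSP bar at LL24 and 41.6% to 57.9% at LL36.

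The 250 bases before the annotated starts of AOC1 (chr3:9403529-9403778, plus strand) and AOC2 (chr3:9406419-9406668, plus strand), from the RefSeq TAIR10.1 assembly, are shown because AOC2 was called and the adjacent AOC1 was not. The longest run they share is tgtagtttagggaccggcc (19 bases), with which the AOC2 window ends. Capitals in AOC1 mark a T/G-box (AACGTG on the opposite strand), a motif bound by MYC proteins, 138 to 133 bases before the start.
AOC1 upstream: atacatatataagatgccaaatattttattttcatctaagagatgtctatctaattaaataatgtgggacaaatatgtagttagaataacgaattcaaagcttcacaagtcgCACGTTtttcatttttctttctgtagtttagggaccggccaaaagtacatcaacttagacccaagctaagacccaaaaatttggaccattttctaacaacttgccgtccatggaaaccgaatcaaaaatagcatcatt
AOC2 upstream: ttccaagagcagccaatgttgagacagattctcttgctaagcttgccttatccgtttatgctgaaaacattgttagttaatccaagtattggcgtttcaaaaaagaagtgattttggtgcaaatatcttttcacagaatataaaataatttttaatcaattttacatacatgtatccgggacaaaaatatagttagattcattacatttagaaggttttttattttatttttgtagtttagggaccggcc

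The motifs searched on both strands of the same window in 27443 genes were the G-box (CACGTG), the T/G-box (AACGTG) and the evening element (AAAATATCT), which is bound by clock proteins. The G-box and the T/G-box share the letters ACGTG but cannot occupy the same strand position. A T/G-box stood in the windows of AOC1 and VSP1, against 7.54% of all genes. A G-box stood in that of AOS, against 6.49%, directly before the start. The full evening element AAAATATCT was in none of the 10 windows, against 2.36%, and shorter or altered forms of it were not searched. A match describes letters and is no evidence of binding. The AOS window (chr5:17099596-17099845, minus strand) is shown because AOS was called lower while LOX2 and AOC2 were called higher, with the G-box in capitals.
AOS upstream: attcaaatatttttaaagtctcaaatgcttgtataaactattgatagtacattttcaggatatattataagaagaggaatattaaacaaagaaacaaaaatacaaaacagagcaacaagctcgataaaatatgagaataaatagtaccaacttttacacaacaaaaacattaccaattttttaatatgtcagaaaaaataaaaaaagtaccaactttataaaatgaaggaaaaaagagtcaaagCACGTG

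OPR3 (AT2G06050, chromosome 2) encodes the reductase that acts on OPDA in the peroxisome. It was measured at 31.1, 32.3 and 30.5 TPM at LL24 and at 44.1, 42.2 and 51.9 TPM at LL36. The LL24 libraries lay close together and below all LL36 libraries. The mean rose 1.47-fold from 31.3 ± 0.93 to 46.1 ± 5.17 TPM, a log2 change of 0.55 (SE 0.09, limma adjusted p = 0.00275), or 0.33 relative to the median gene. OPR3 kept its call under all 15 alternatives.

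JMT (AT1G19640, 4 exons, chromosome 1) encodes the methyltransferase that makes the volatile methyl jasmonate. Its values were 5.21, 5.96 and 4.89 TPM at LL24 and 0.903, 0.717 and 1.199 TPM at LL36. JMT was thus low at LL24 and near the limit of 1 TPM at LL36, and the groups lay far apart. The mean fell from 5.35 ± 0.55 to 0.94 ± 0.24 TPM, a log2 change of -2.03 (SE 0.15, limma adjusted p = 0.000126), or -2.25 relative to the median gene. The call held under all 15 alternatives. Because JMT passed the filter on low values only through LL24, where it was high, its adjusted p and call are given as description. JMT and AOC2 had the largest changes of the 10 genes, in opposite directions.

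VSP1 (AT5G24780) and VSP2 (AT5G24770) lie next to each other on the minus strand of chromosome 5 and encode proteins of the acid phosphatase family that accumulate in young leaves and after jasmonate treatment or wounding. Their coding sequences were 90.4% identical, and 0.37% and 0.33% of their 50-base windows were shared. The longest coding run in common, 54 bases, is printed for the same reason as for the AOC genes.
VSP1 and VSP2, shared coding run: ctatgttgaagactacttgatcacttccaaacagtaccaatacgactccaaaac

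VSP1 was measured at 57.8, 71.2 and 49.6 TPM at LL24 and at 79.0, 107 and 146 TPM at LL36. The LL36 libraries were all higher, although they spread widely and the lowest came near the highest of LL24. The mean rose 1.86-fold from 59.5 ± 10.9 to 111 ± 33.6 TPM, a log2 change of 0.86 (SE 0.23, limma adjusted p = 0.0215), or 0.65 relative to the median gene. The adjusted p from limma passed 0.05 with median-of-ratios scaling (0.0711) and without LL24 replicate 1 (0.0533), LL24 replicate 3 (0.0681) or LL36 replicate 2 (0.0613).

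VSP2 varied most at LL24, with 179.6, 117 and 77.5 TPM, and lay at 111, 100.3 and 106 TPM at LL36. The LL24 libraries spanned all LL36 libraries. The means were 125 ± 51.5 and 106 ± 5.31 TPM, and the log2 change of -0.15 (SE 0.28, limma adjusted p = 0.660) became 0.15 without LL24 replicate 1.

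The ratio of VSP1 to VSP2 TPM was 0.322, 0.609 and 0.640 at LL24 and 0.713, 1.07 and 1.38 at LL36. VSP2 was the more abundant of the pair in the 3 LL24 libraries and in LL36 replicate 1. The groups did not overlap (exact two-sided permutation p = 0.1, the smallest possible), although LL36 replicate 1 was close to the upper LL24 values. Here too a called gene is set against an uncalled one, and the ratio is given as description. Added together, VSP1 and VSP2 had a log2 change of 0.27 (SE 0.23, limma adjusted p = 0.352). The windows before VSP1 (chr5:8509202-8509451, minus strand) and VSP2 (chr5:8502225-8502474, minus strand) are shown as the other pair of adjacent genes of which 1 was called, with the T/G-box of VSP1 in capitals. The longest run they share has 23 bases.
VSP1 upstream: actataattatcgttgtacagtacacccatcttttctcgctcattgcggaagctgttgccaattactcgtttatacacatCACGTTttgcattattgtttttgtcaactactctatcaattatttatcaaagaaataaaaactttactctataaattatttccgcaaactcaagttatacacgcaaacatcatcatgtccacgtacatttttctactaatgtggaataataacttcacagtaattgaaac
VSP2 upstream: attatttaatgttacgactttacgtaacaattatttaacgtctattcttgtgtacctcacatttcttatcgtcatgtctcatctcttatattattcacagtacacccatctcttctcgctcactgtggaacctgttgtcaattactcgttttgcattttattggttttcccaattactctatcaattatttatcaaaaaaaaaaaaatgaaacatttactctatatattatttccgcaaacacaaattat

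**Figure D3:**
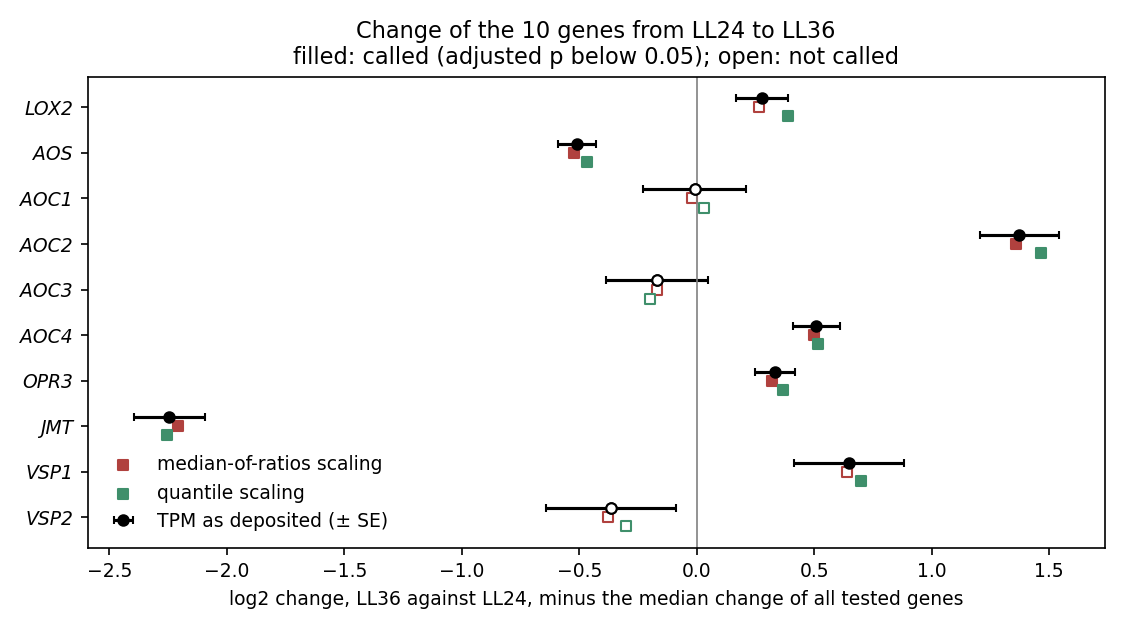
Log2 change from LL24 to LL36 (x axis) of the 10 genes after subtraction of the median change of all tested genes, with black circles for the deposited TPM (bars are ± 1 SE), red squares for median-of-ratios scaling and green squares for quantile normalization. JMT (-2.25) and AOC2 (1.37) lie farthest from 0, and LOX2 and VSP1 are open, that is not called, with median-of-ratios scaling.

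By the median, replicates of 1 time point differed more in these genes than over all tested genes. The median SD of log2 values within a time was 0.23 for the 10 genes and 0.11 for all tested genes. In LL24, 7 of the 10 genes were highest in replicate 1 and none in replicate 3. Replicate 1 was also the LL24 library in which all 5 root markers were highest, with a sum of 3.69 TPM against 1.16 and 1.05 TPM. The part of this in the jasmonate genes was not tested, and without LL24 replicate 1, 5 of the 10 were called, beside 49.7% of all tested genes. In LL36, 8 of the 10 were highest in replicate 3, all but AOC4 and VSP2. The summed flower markers, mostly SEP3, were also highest there, at 5.47 TPM against 2.89 and 4.74 TPM. Of the 5 markers, 3 were highest in that library. The part of this in the jasmonate genes was not tested either. The median deviation of the 10 genes from the mean of their time was 0.11 in LL24 replicate 1 and 0.23 in LL36 replicate 3, whereas that of all tested genes stayed between -0.01 and 0.01 in every library. The 10 genes thus tended to deviate together in single libraries and are not replicates of each other.

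Jasmonate genes respond to wounding, and touch, wounding or cold raises another set of transcripts within minutes. A list of 12 such rapid response genes (TCH2, TCH3, TCH4, STZ, ZAT12, WRKY33, WRKY40, ERF109, SZF1, CBF1, CBF2 and CBF3) was read beside them. Its summed level was 387, 507 and 604 TPM in LL24 replicates 1, 2 and 3 and 203, 218 and 399.8 TPM in LL36 replicates 1, 2 and 3, so the groups overlapped. In LL36, 11 of the 12 were highest in replicate 3, the library in which 8 of the 10 jasmonate genes were highest. In LL24, 10 of the 12 were highest in replicate 3, in which none of the 10 jasmonate genes was highest. The calcium sensor gene TCH2 had means of 110 and 47.6 TPM at LL24 and LL36 (log2 change -1.27, limma adjusted p = 0.0107), and 11.7% of its 100-base windows occur in another gene. TCH4, a cell wall enzyme, had means of 80.0 and 33.7 TPM (log2 change -1.27, limma adjusted p = 0.0192). SZF1, a zinc finger protein, had means of 70.0 and 22.6 TPM (log2 change -1.71, limma adjusted p = 0.0131). Without a filter on low values none of the 3 was called, and the call of TCH4 was also lost without LL24 replicate 2 (limma adjusted p = 0.0568), LL24 replicate 3 (0.0624), LL36 replicate 1 (0.0579) or LL36 replicate 2 (0.0649). Of the 11 genes of the list that were tested, 5 were called, beside 52.4% of all tested genes, 2 higher and 3 lower (1 higher and 4 lower with median-of-ratios scaling or quantile normalization). The higher ones were the cold response regulators CBF3 and CBF1, named after their values were seen. Both passed the filter on low values only through LL36, so their adjusted p values are given as description. CBF3 had means of 0.26 and 2.67 TPM (log2 change 2.07, limma adjusted p = 0.000125). CBF1 had means of 0.16 and 1.10 TPM (log2 change 1.17, limma adjusted p = 0.0310). The call of CBF1 was lost when values were quantile normalized (limma adjusted p = 0.105) or scaled by median of ratios (0.0541). The part of this list, CBF3 and CBF1 included, in the values of the jasmonate genes was not tested. Without LL36 replicate 3, 7 of the 10 jasmonate genes were called, beside 41.5% of all tested genes.

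**Figure D4:**
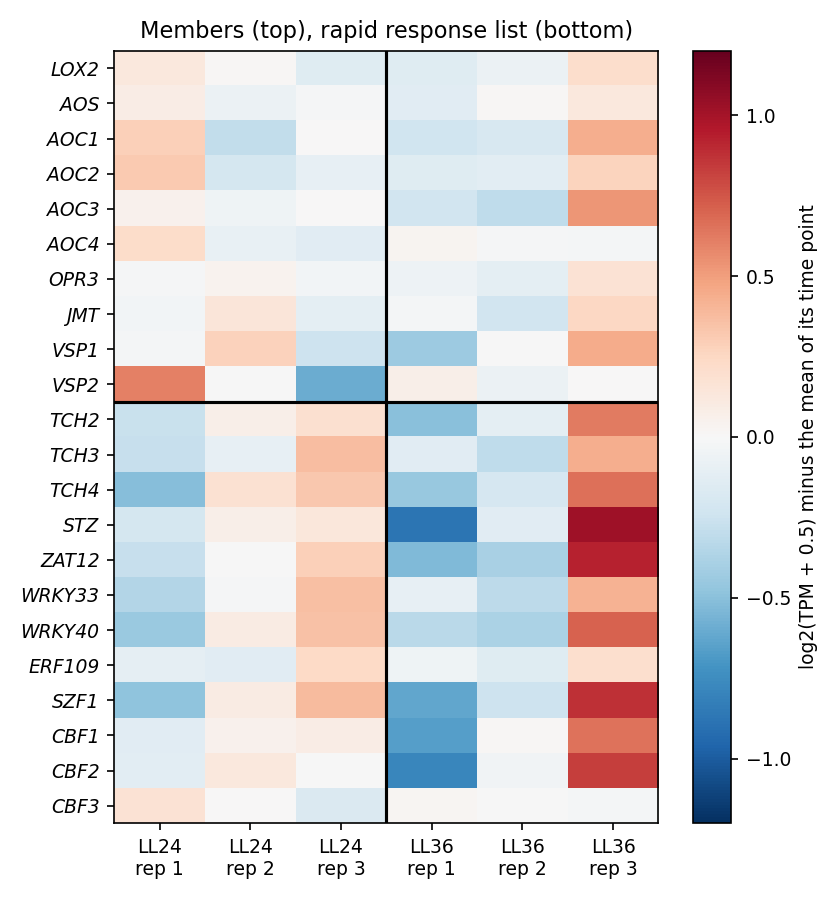
Log2(TPM + 0.5) of each gene in each wt library minus the mean of its time point (colour, red above and blue below), for the 10 jasmonate genes above the black line and the 12 rapid response genes below it. LL36 replicate 3 lies above the mean of its time for 9 jasmonate genes and 11 rapid response genes, and LL24 replicate 1 for 7 jasmonate genes and 1 rapid response gene.

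The wider pathway was read from 59 further genes in 5 lists, of which 53 could be tested. Of these, 25 were called, 21 higher and 4 lower at LL36, or 47.2% beside 52.4% of all tested genes, and their median log2 change of 0.26 was close to the 0.21 of all tested genes. The balance depended on the scaling, here as over all tested genes, of which 41.2% were called higher and 11.2% lower as deposited. Median-of-ratios scaling called 10 (3 higher, 7 lower), or 18.9% beside 34.2% of all tested genes (16.1% higher, 18.1% lower). Quantile normalization called 12 (6 higher, 6 lower), or 22.6% beside 34.4% (18.7% higher, 15.7% lower).

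Among 16 other genes of synthesis, from lipases and desaturases to β-oxidation, 14 were tested and 8 were called, all higher as deposited. This was 57.1%, beside 52.4% of all tested genes (41.2% higher, 11.2% lower). With median-of-ratios scaling 2 were called higher and 3 lower, or 35.7% beside 34.2%. The thiolase gene KAT2, which acts in the last step of β-oxidation, rose from 81.1 ± 8.16 to 150.3 ± 3.42 TPM (log2 change 0.89, SE 0.08, limma adjusted p = 0.000242). AIM1, a multifunctional β-oxidation protein, rose from 41.0 ± 3.74 to 66.7 ± 0.90 TPM (log2 change 0.70, limma adjusted p = 0.000522). Both genes serve all peroxisomal β-oxidation, not jasmonate alone, and both kept their call under all 15 alternatives. FAD3, a desaturase that makes linolenic acid in the endoplasmic reticulum, rose from 55.1 to 75.2 TPM (log2 change 0.45, limma adjusted p = 0.00543) but lost its call after median-of-ratios scaling (limma adjusted p = 0.0567). The lipase gene DAD1 was listed at 0 in all 6 libraries.

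Of 11 genes of conjugation and turnover, 8 were tested and 3 were called, all higher as deposited. This was 37.5%, beside 52.4% of all tested genes. No call was made with median-of-ratios scaling or quantile normalization, beside 34.2% and 34.4% of all tested genes. JAR1, the conjugating enzyme, was measured at 24.6, 20.2 and 20.5 TPM at LL24 and 26.3, 25.4 and 26.4 TPM at LL36 (log2 change 0.26, limma adjusted p = 0.0390, but 0.691 with median-of-ratios scaling). Its adjusted p from limma lay between 0.0816 and 0.105 when LL24 replicate 2 or 3 or any of the LL36 libraries was left out. ILL6, a hydrolase of conjugates, had means of 5.75 and 8.78 TPM (log2 change 0.57, limma adjusted p = 0.0105, but 0.0590 with median-of-ratios scaling).

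Of 14 genes of perception and repression, 13 were tested and 6 were called, 3 in each direction. This was 46.2%, beside 52.4% of all tested genes (41.2% higher, 11.2% lower). With median-of-ratios scaling 4 were called, 1 higher and 3 lower, or 30.8% beside 34.2%. With quantile normalization 5 were called, 2 higher and 3 lower, or 38.5% beside 34.4%. COI1, the receptor subunit, was lower at LL36, with 16.3, 15.5 and 16.1 TPM at LL24 and 12.6, 13.3 and 13 TPM at LL36 (log2 change -0.29, SE 0.05, limma adjusted p = 0.00531). The JAZ repressor genes were called in both directions. JAZ9 fell from 124 ± 9.29 to 77.3 ± 12.1 TPM (log2 change -0.69, limma adjusted p = 0.00368) and JAZ6 from 59.0 ± 1.57 to 44.3 ± 5.24 TPM (log2 change -0.42, limma adjusted p = 0.00855), while JAZ12 rose from 45.8 ± 2.89 to 65.2 ± 2.72 TPM (log2 change 0.51, limma adjusted p = 0.00124). COI1, JAZ6, JAZ9 and JAZ12 kept direction and call under all 15 alternatives.

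Of the 9 transcription factor genes, all were tested and 6 were called, 5 higher and 1 lower. This was 66.7%, beside 52.4% of all tested genes (41.2% higher, 11.2% lower). Only the lower one was called with median-of-ratios scaling or quantile normalization, or 11.1% beside 34.2% and 34.4%. That gene was MYC4, an activator of jasmonate responses. It was measured at 18.4, 17.4 and 16.6 TPM at LL24 and at 9.46, 8.70 and 7.96 TPM at LL36, with no overlap (log2 change -0.97, SE 0.08, limma adjusted p = 0.000196), and kept its call under all 15 alternatives. MYC2, the best known activator, had means of 31.0 ± 1.87 and 29.5 ± 5.80 TPM and was not called (log2 change -0.09, limma adjusted p = 0.613). The value of MYC2 is uncertain, since 98.5% of its 100-base windows also occur in another annotated gene. NAC019 had means of 4.63 ± 2.36 and 10.3 ± 3.23 TPM with overlapping groups (log2 change 1.12, limma adjusted p = 0.0430, but 0.104 with median-of-ratios scaling), and lost its call without LL24 replicate 2 or 3 or LL36 replicate 1 or 3 (limma adjusted p between 0.0974 and 0.119). JAM1, a repressor related to the MYC factors, had means of 14.2 and 18.4 TPM (log2 change 0.36, limma adjusted p = 0.00785, but 0.162 with median-of-ratios scaling).

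The 9 further jasmonate targets, which like the VSP genes report the output of the pathway, were all tested. As deposited 2 were called, both higher, or 22.2% beside 52.4% of all tested genes. Neither was called with median-of-ratios scaling or quantile normalization, beside 34.2% and 34.4% of all tested genes. CLH1, a chlorophyllase, had means of 84.6 and 117 TPM (log2 change 0.45, limma adjusted p = 0.0187, but 0.169 with median-of-ratios scaling, 0.0541 without LL24 replicate 2 and 0.0575 without LL24 replicate 3). These genes varied more within a time than those of synthesis, with a median SD of log2 values of 0.40 against 0.10 for the 14 other synthesis genes.

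**Figure D5:**
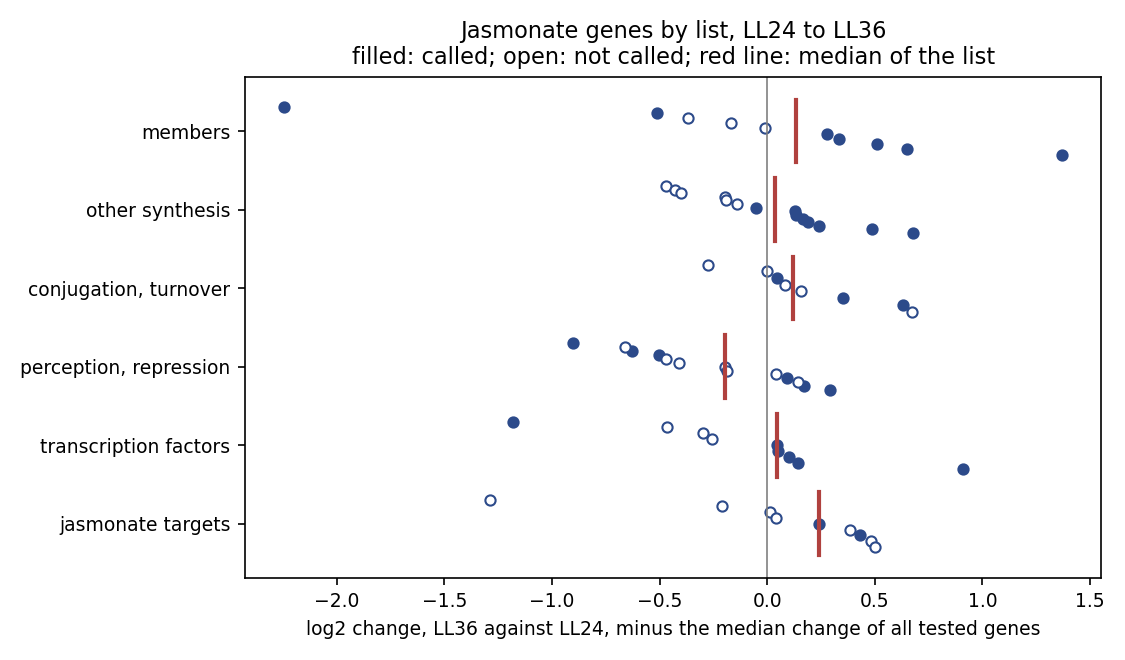
Log2 change from LL24 to LL36 minus the median change of all tested genes (x axis) for the 10 genes and the 5 further lists (rows), 1 point per tested gene, filled where called with the deposited TPM, with a red line at each list's median. Points lie on both sides of 0 in every row, and the medians lie between -0.19 for perception and repression and 0.24 for jasmonate targets.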

How the data were processed

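Polyadenylated RNA of aerial tissue was sequenced in 18 libraries of 6 groups. Per the study's methods, the authors trimmed reads with Sickle, used only the first read of each pair, mapped with STAR 2.5.2a to the atRTD transcripts of TAIR10, quantified with Salmon 0.8.2 and summarised by gene with tximport. Genes for rRNA and organelle genes were left out. The deposited values are TPM per gene, which keep no sequencing depth. Only the 6 columns named for Col-2 match the labels. The other 12 columns of per-sample values match no label and were not used, so the planned comparisons of AtGRP7-ox and grp7-1 8i were not made.

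Genes whose mean exceeded 1 TPM at LL24 or LL36 were compared on log2(TPM + 0.5) with limma 3.58.1 in R 4.3.3 (mean-variance trend, no block, two-sided, Benjamini-Hochberg over 19303 genes, called below 0.05). The script was tested on simulated data in which few genes changed, evenly in both directions, and genes varied independently. The real data differ in this, so that test does not show how reliable the calls are here. TPM stand in for the counts that the authors tested with edgeR. Ratios within libraries were compared by exact permutation in Python 3.11.15. Upstream windows, exons, motifs and shared stretches come from the RefSeq TAIR10.1 assembly, to which all coordinates refer, and all 100 listed identifiers matched it. The 10 genes, the lists and the tests were chosen with earlier results of these data known. All 10 genes are named, and from each other list the 3 called genes with the largest change and at least 5 TPM in 1 group, with JAR1, COI1 and MYC2 in any case. DAD1, CBF1 and CBF3 were named after their values were seen. Alternatives were leaving out each library, a block for the replicate number, pseudocounts of 0.1 and 1, quantile normalization, median-of-ratios scaling, scaling without the 100 most abundant genes, a filter at 5 TPM or none, a fit without the mean-variance trend, and sums of near-identical genes.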

Additional observations from a re-analysis of the deposited data

How the results depend on the processing

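AOC2, AOC4, OPR3 and JMT kept their direction and call under the 15 alternatives tried, with limma adjusted p between 0.000421 and 0.00678 for AOC2, 0.000272 and 0.0110 for AOC4, 0.00216 and 0.0231 for OPR3, and 5.68e-05 and 0.00204 for JMT. The values of JMT, which passed the main filter only through LL24, are given as description. Without a filter on low values, 4 of the 10 genes were called (3 higher, 1 lower), beside 25% of 33331 genes, and the calls of LOX2, AOS and VSP1 were lost. Leaving out 1 library at a time gave 5 to 7 calls among the 10 genes and 17 to 24 among the 52 or 53 pathway genes tested, beside 40% to 49.7% of all tested genes. Of the pathway genes, median-of-ratios scaling called 10 and quantile normalization 12, beside 34.2% and 34.4% of all tested genes. The deposited TPM gave 25, beside 52.4%. The log2 change of AOC1 was -0.007 with median-of-ratios scaling and between -0.015 (without LL36 replicate 3) and 0.347 with 1 library left out. That of AOC3 was -0.16 with median-of-ratios scaling, -0.16 with quantile normalization, -0.061 when scaled without the 100 most abundant genes and between -0.225 (without LL36 replicate 3) and 0.193 with 1 library left out. With 1 library left out, that of VSP2 lay between -0.454 and 0.15 (without LL24 replicate 1), and that of MYC2 between -0.238 and 0.011 (without LL36 replicate 1). The causes were not tested. Deviations of libraries with the same replicate number correlated with r = 0.13, 0.15 and 0.03. Each of these lay above every r for different numbers (between -0.13 and 0.01). The main fit nonetheless did not take the numbers as pairs. With the replicate number as a block, 7 of the 10 genes and 24 pathway genes were called, beside 51.5% of all tested genes. A fit on the compared groups alone was not run separately, since only wt libraries were assigned. With AOC1 to AOC3 and VSP1 with VSP2 summed, 6 of 7 entries were called, all but the VSP sum, beside 52.4% of all tested genes. TPM keep no depth, and 3 libraries a group limit the precision.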

Other observations

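As a description, the genes whose log2 values followed LOX2 most closely over the 6 wt libraries, among 14277 genes with a mean of at least 5 TPM, were HYL1 (AT1G09700), which acts in microRNA processing (Pearson r = 0.99, means of 5.82 TPM at LL24 and 6.90 TPM at LL36), AT3G62940 (r = 0.99) and AT5G10160 (r = 0.99). For VSP2 they were AT1G74456 (r = 0.98), the sucrose synthase gene SUS1 (AT5G20830, r = 0.98, means of 18.7 and 16.0 TPM) and AT3G57490 (r = 0.97). With 6 libraries that share 2 times, and so many genes compared, such values carry no test.

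Several jasmonate targets and turnover genes spread widely within a time without being called. These genes were chosen after their values were seen. The defensin gene PDF1.2A was measured at 416, 136 and 202 TPM at LL24 and at 192, 176 and 578 TPM at LL36, so that the highest value of each time came from LL24 replicate 1 and LL36 replicate 3, the libraries in which most of the 10 genes were highest. BSMT1, a methyltransferase of benzoic and salicylic acid, stood at 33.8, 79.5 and 36.9 TPM at LL24 and at 34.6, 11.7 and 25.1 TPM at LL36. JOX3, which inactivates jasmonic acid by hydroxylation, stood at 6.87, 7.65 and 2.81 TPM at LL24 and at 11.0, 3.19 and 8.13 TPM at LL36.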
